A study of Mus musculus with 6 samples.

Results

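Homologous recombination repairs a DNA double-strand break by copying the sister chromatid, and the Fanconi anemia pathway removes crosslinks between the strands of DNA with its help. The described set holds 39 genes of these pathways, taken by symbol from a list of named repair genes. The rule uses no measured value, but the list was drawn up with earlier results of these data known. All 39 were found among the 24421 genes of the deposited table, and all 39 passed the filter on low reads. The study measured polyadenylated RNA in E14, a line of mouse embryonic stem cells, with 3 Pml knockout samples (genotype Pml-/-) and 3 wild-type samples. Both groups were grown in serum with leukemia inhibitory factor and the inhibitors CHIR99021 and PD0325901, which act on GSK3 and MEK. Pml encodes the scaffold of PML nuclear bodies, protein assemblies of the nucleus in which several repair proteins are known to gather. The labels do not give the disrupted part of Pml or the number of knockout clones, and the 3 knockout columns share the name KO34. No label says that the replicates were separate cultures, so the spread behind each p-value is that of the libraries and could be purely technical, and a difference between lines and an effect of Pml cannot be told apart.

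A break is marked by the kinase ATM and the adaptor MDC1. Its ends are trimmed by the MRE11-RAD50-NBN complex with CtIP (encoded by Rbbp8) and the exonuclease EXO1. BRCA1 with BARD1, PALB2 and BRCA2 then prepares the single-stranded DNA for the search for the matching sequence, and further mediator proteins assist. At a crosslink, the Fanconi core complex attaches ubiquitin to the FANCI-FANCD2 pair, after which nucleases held by SLX4 cut the DNA. Embryonic stem cells divide fast and are known to use homologous recombination heavily.

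The libraries held 5845653 to 8693079 reads in the knockout group and 9389186 to 11046725 reads in the wild-type group. The unit of level is CPM, which scales a gene's reads to a library size common to all libraries. Fold changes are knockout over wild type on the log2(CPM + 1) scale, where changes of scarce genes come out smaller than they are. The fit was limma across 12435 genes, with adjusted p-values (Benjamini-Hochberg) taken over all of them and a threshold of 0.05. Pml itself had 77.3, 75.4 and 76.3 CPM in the knockout libraries, against 186, 194 and 193 CPM in the wild-type libraries, and the remaining RNA was 39.9% of the wild-type mean (limma adjusted p = 1.28e-20). Stem cell markers were present in both groups, with Pou5f1 at 1431, 1474 and 1467 CPM in the knockout and 1457, 1455 and 1427 CPM in wild type, and 1 of 8 listed markers (Tdgf1, higher) passed the test. Among 2-cell-stage markers, which a small part of such cultures transcribes, all 9 tested of 11 in the table were higher, and the list summed to between 189.9 and 209.8 CPM in the knockout and between 72.4 and 77.1 CPM in wild type. Of 6 tested differentiation markers 1 was higher and 4 were lower, with sums of 132 to 146 CPM in the knockout and 180.1 to 197 CPM in wild type. Fibroblast markers had 2 higher and 2 lower of 4 tested, with sums of 1341 to 1372 CPM in the knockout and 1237 to 1309 CPM in wild type. Fn1 and Vim made up most of these sums. Fn1 averaged 1051 CPM in the knockout and 856 CPM in wild type, and Vim 281 and 386 CPM. Pdgfrb, also called higher, averaged 20.2 CPM in the knockout and 15.0 CPM in wild type. Thy1, also called lower, averaged 3.86 CPM in the knockout and 8.43 CPM in wild type. Col1a1 averaged 0.658 CPM in the knockout and 1.02 CPM in wild type, and Col1a2 0.760 and 0.714 CPM. S100a4 had no reads in any library, and Col3a1 had none in all 3 knockout libraries and in 2 of the wild-type libraries. The part of these markers in the results below was not tested, and in bulk RNA a change in the share of a cell type and a change per cell cannot be told apart.

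Of the 39 genes 6 passed the test in the knockout, or 15.4%, against 14.0% of all genes tested. Brca1, Brca2, Fanci and Mus81 were higher, 4 of 39 where 6.54% of all genes were called higher. Rad50 and Nbn were lower, 2 of 39 where 7.49% of all genes were called lower. The share of called genes in the set was thus near that of the transcriptome, and it is no result about the set as a whole. The differences were small, with a mean knockout level between 82.4% (Nbn) and 125% (Mus81) of the wild-type mean among the called genes. The median log2 fold change of the set was 0.04 and that of all tested genes 0.00463, and 25 of the 39 lay above 0, or 64.1%, against 51.4% of all tested genes. The set's median was 0.02 without knockout replicate 3 and also 0.02 without wild-type replicate 1. edgeR called the same 6 genes (14.6% of all genes), and DESeq2 called Fanci and Rad50 (6.58% of the genes it gave an adjusted p). An unadjusted p under 0.05 was found for 13 of the 39, or 33.3%, against 27.4% of all genes tested. For 10 genes the groups did not overlap, or 25.6%, against 30.2% of all genes tested. Summed over the set, the level was 2255, 2193 and 2232 CPM in the knockout libraries and 2157, 2125 and 2184 CPM in the wild-type libraries.

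**Figure D1:**
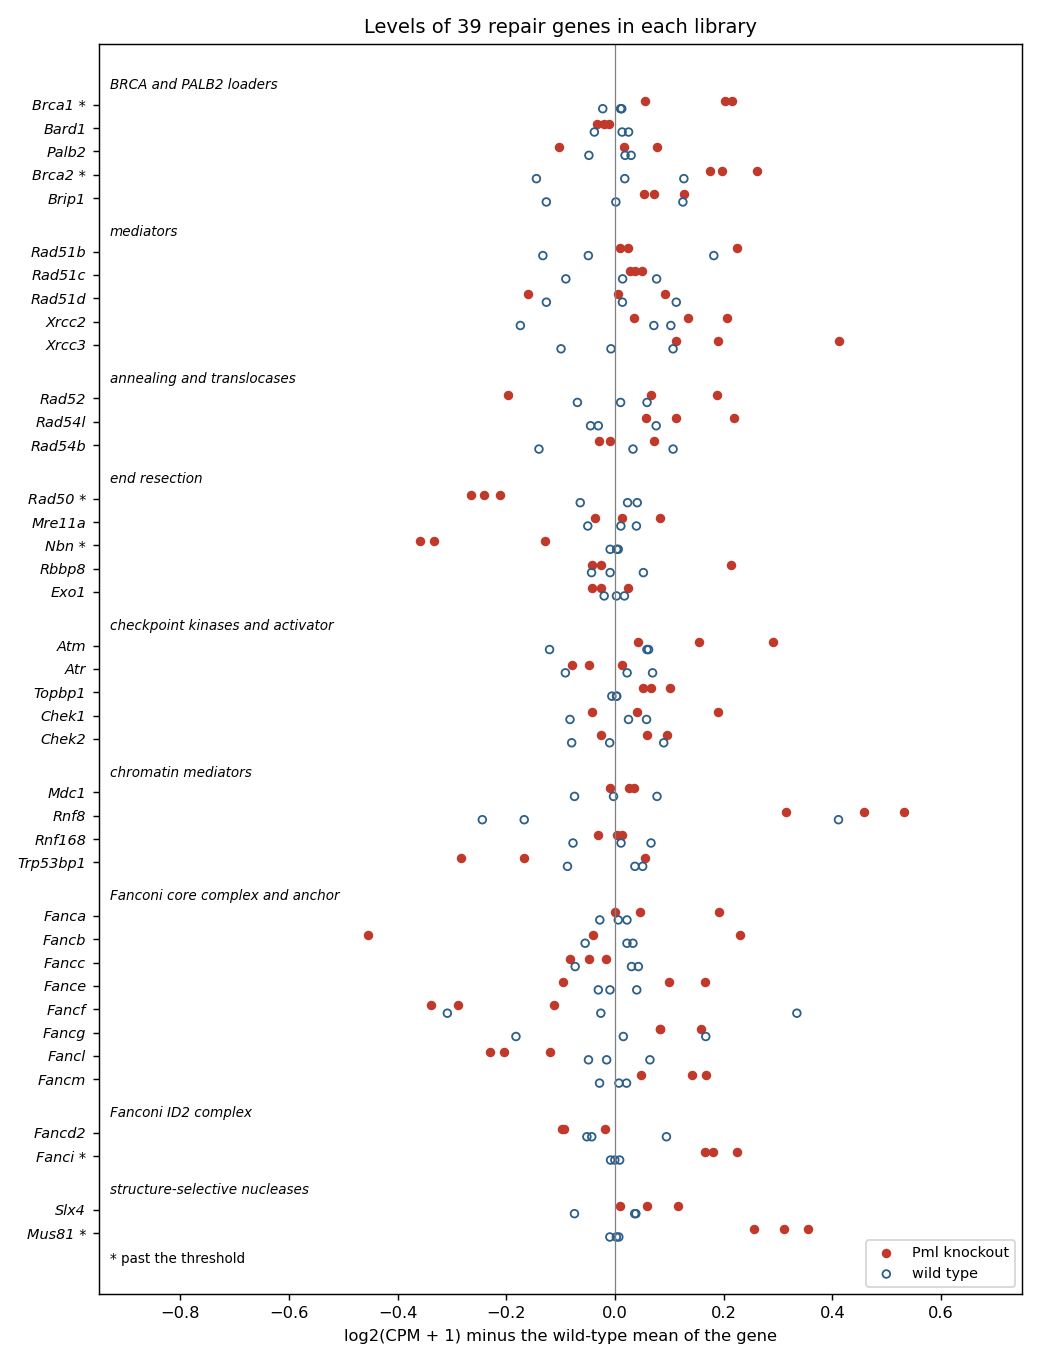
Level of each of the 39 repair genes in each library, as log2(CPM + 1) minus the gene's wild-type mean, with filled points for the 3 Pml knockout libraries above open points for the 3 wild-type libraries of the same gene. Genes are grouped by role, and an asterisk marks the 6 genes with a limma adjusted p under 0.05; for Rad50 and Nbn all knockout points lie left of the wild-type points, and for Brca1, Brca2, Fanci and Mus81 they lie right of them.

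The promoters of the 4 genes that rose are shown here, since these are the members that moved in the same direction and have an entry in the RefSeq table (build GRCm38.p6). Each sequence is the 250 bases before the annotated start, 5′ to 3′ on the gene's own strand. Capitals mark matches on either strand to 3 motifs known from genes of the cell cycle: the E2F site, searched as TTTCCCGC, TTTCGCGC, TTTGCCGC and TTTGGCGC, the cell cycle homology region, searched as TTTGAA and TTCGAA, and the CCAAT box, searched as CCAAT. The windows are chr11:101551956-101552205 (minus strand) for Brca1, chr5:150522371-150522620 (plus strand) for Brca2, chr7:79392088-79392337 (plus strand) for Fanci and chr19:5488380-5488629 (minus strand) for Mus81.
Brca1: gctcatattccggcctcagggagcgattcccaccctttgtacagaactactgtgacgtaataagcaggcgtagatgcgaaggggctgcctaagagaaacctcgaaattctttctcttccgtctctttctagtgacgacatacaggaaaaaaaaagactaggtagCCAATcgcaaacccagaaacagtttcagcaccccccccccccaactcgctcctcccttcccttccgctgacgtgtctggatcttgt
Brca2: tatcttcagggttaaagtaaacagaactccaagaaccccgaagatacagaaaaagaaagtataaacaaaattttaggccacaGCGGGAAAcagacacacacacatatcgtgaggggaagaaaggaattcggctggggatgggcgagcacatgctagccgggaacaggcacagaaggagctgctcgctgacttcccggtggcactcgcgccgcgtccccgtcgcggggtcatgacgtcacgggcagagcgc
Fanci: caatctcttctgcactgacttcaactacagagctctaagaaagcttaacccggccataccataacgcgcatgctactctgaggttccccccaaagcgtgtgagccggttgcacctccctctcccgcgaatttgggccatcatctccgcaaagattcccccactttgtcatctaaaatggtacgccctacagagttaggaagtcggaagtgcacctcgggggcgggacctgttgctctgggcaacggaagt
Mus81: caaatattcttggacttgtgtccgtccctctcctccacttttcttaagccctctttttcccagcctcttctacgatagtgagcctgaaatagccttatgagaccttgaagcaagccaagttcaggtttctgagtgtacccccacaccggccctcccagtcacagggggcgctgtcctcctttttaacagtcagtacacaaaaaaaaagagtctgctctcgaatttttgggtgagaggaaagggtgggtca
Brca1 holds a CCAAT box that ends 81 bases before the start, and Brca2 holds an E2F match that ends 160 bases before it. The windows of Fanci and Mus81 hold none of the letters searched. For Brca1 the RefSeq and GENCODE starts coincide, while for Brca2, Fanci and Mus81 they differ, and the Fanci window lies inside the GENCODE gene.

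Of the 39 genes 31 have a promoter in the table, with 34 windows in all. An E2F match lay in 6 of the 34 windows, those of Bard1, Brca2, Topbp1, Chek2, Mdc1 and Fancg, or 17.6%, against 3.43% of the 12488 windows of tested genes and 1.86% of all 32851 windows. Of these 6 genes only Brca2 passed the expression test. CCAAT boxes lay in 19 of the 34 windows, or 55.9%, against 35.8% of the windows of tested genes and 33.8% of all windows. The overlapping windows of Rad51b and of Rad54l count the same boxes again, and by gene the count was 17 of 31. The cell cycle homology region lay in 3 of the 34, or 8.82%, against 12.0% of the windows of tested genes and 17.1% of all windows. A match is a description of letters and not evidence of a bound factor.

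Among the BRCA and PALB2 genes, Brca1 and Brca2 rose and Bard1, Palb2 and Brip1 did not pass the test. Brca1 (chromosome 11, 101488764 to 101551955, minus strand, mm10) encodes the ubiquitin ligase that favours resection and recruits PALB2. It had 149.6, 134 and 148 CPM in the knockout libraries, against 129.8, 127 and 129.6 CPM in the wild-type libraries. The groups did not overlap, though knockout replicate 2 lay close to the wild-type values. The difference was 0.16 on the log2 scale (SE 0.0436, limma adjusted p = 0.0133), with all 3 knockout libraries higher. The adjusted p was 0.0701 without knockout replicate 1, 0.0848 without knockout replicate 3, 0.065 without wild-type replicate 2 and 0.0535 by DESeq2. Its neighbour Nbr1 lies on the other strand, with 270 bases between the nearest starts of their protein-coding transcripts. Nbr1 averaged 178 CPM in both the knockout and the wild-type group.

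Brca2 (chromosome 5, 150522630 to 150570329, plus strand) encodes a large mediator of strand exchange. It had 78.6, 75.1 and 74.0 CPM in the knockout libraries, against 71.5, 59.1 and 66.2 CPM in the wild-type libraries. No library of 1 group fell within the other, and the spread was wider in wild type, where replicate 2 was lowest. The difference was 0.21 on the log2 scale (SE 0.0582, limma adjusted p = 0.0133). Without wild-type replicate 2 it was 0.14 with an adjusted p of 0.161, and by DESeq2 the adjusted p was 0.0891.

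Bard1, the obligate partner of BRCA1, averaged 56.9 ± 0.432 CPM in the knockout and 57.8 ± 1.35 CPM in wild type (SD, n = 3 each). Palb2, the bridge between BRCA1 and BRCA2, averaged 28.0 ± 1.83 CPM in the knockout and 28.0 ± 0.839 CPM in wild type. Brip1, a helicase bound by BRCA1, averaged 20.0 ± 0.566 CPM in the knockout and 18.8 ± 1.72 CPM in wild type. The 95% intervals of their log2 fold changes were -0.13 to 0.09, -0.16 to 0.15 and -0.10 to 0.27 in that order.

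Rad50 and Nbn fell in the knockout, while Mre11a, the nuclease of the same complex, did not pass the test. Rad50 (chromosome 11, 53649519 to 53707319, minus strand), the ATPase that tethers the ends, had 66.1, 63.6 and 64.8 CPM in the knockout libraries, against 77.9, 73.3 and 78.9 CPM in the wild-type libraries. The knockout libraries lay close together and all below wild type. The difference was -0.24 on the log2 scale (SE 0.0510, limma adjusted p = 0.00154), lower in 3 of 3 knockout libraries. It passed under all 12 alternative settings, with adjusted p-values up to 0.0155.

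Nbn (chromosome 4, 15957925 to 15992589, plus strand), which brings ATM to the complex, had 30.3, 29.8 and 35.1 CPM in the knockout libraries, against 38.6, 38.6 and 38.2 CPM in the wild-type libraries. All knockout libraries lay below wild type, and knockout replicate 3 was nearest to it. Nbn differed by -0.27 on the log2 scale (SE 0.0717, limma adjusted p = 0.00909). It passed under every alternative setting except DESeq2, which gave an adjusted p of 0.0824.

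Mre11a had 80.4, 77.7 and 84.4 CPM in the knockout libraries, against 76.9, 81.9 and 80.3 CPM in the wild-type libraries, with overlapping groups. Its log2 fold change was 0.02, with a 95% interval of -0.08 to 0.12. Rbbp8 averaged 38.8 ± 4.06 CPM in the knockout and 37.4 ± 1.29 CPM in wild type, and Exo1 90.5 ± 2.17 CPM in the knockout and 91.4 ± 1.20 CPM in wild type. Neither passed the test.

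**Figure D2:**
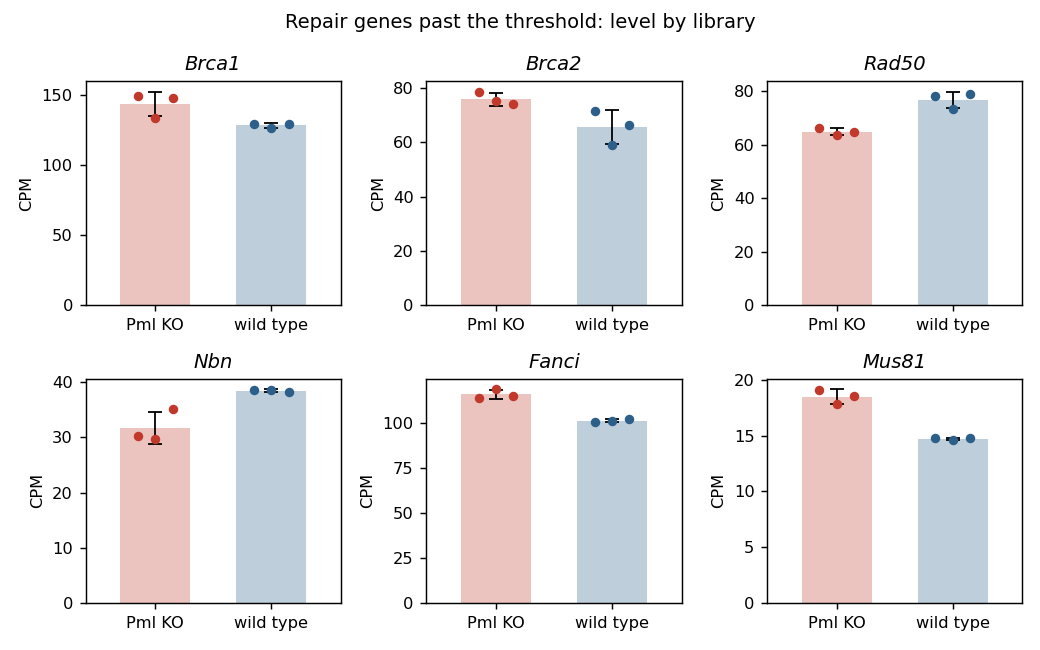
Level in CPM of the 6 repair genes with a limma adjusted p under 0.05, with Pml knockout on the left and wild type on the right of each panel. Bars are means, error bars are SD of 3 libraries, and points are libraries; Rad50 and Nbn are lower in the knockout, and the other 4 are higher.

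In the pair that carries the ubiquitin of the Fanconi pathway, Fanci rose and Fancd2 did not pass the test. Fanci (chromosome 7, 79391929 to 79450264, plus strand) had 114, 119 and 115 CPM in the knockout libraries, against 101, 101 and 102 CPM in the wild-type libraries. The groups were well apart and narrow. The difference was 0.19 on the log2 scale (SE 0.0426, limma adjusted p = 0.00244), higher in 3 of 3 knockout libraries, and it passed under all 12 alternative settings, with adjusted p-values up to 0.0247. Exons of Polg, the mitochondrial DNA polymerase on the opposite strand, cover 921 exonic bases of Fanci, or 15.9% of them, and the sources used here do not say whether reads were counted by strand. Polg averaged 110.6 ± 1.54 CPM in the knockout and 101 ± 3.47 CPM in wild type and also rose (log2 fold change 0.13, limma adjusted p = 0.0458). The reads of the shared part cannot be told apart.

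Fancd2 had 72.4, 72.2 and 76.4 CPM in the knockout libraries, against 75.0, 74.6 and 82.6 CPM in the wild-type libraries. The groups overlapped, and the 95% interval of the log2 fold change was -0.18 to 0.04.

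Of the 8 genes of the core complex and its anchor 0 passed limma, and edgeR and DESeq2 also called 0, while 2 had an unadjusted p under 0.05. These were Fancm and Fancl. Fancm, the DNA translocase that anchors the complex, had 125, 115 and 122 CPM in the knockout libraries, against 109, 111 and 112 CPM in the wild-type libraries (log2 fold change 0.12, limma adjusted p = 0.0679). All knockout libraries lay above wild type. The adjusted p was 0.0166 without knockout replicate 2 but 0.213 without knockout replicate 1, and 2 of the 12 alternative settings called Fancm. Fancl, the ubiquitin ligase of the complex, had 22.8, 22.4 and 24.3 CPM in the knockout libraries, against 25.5, 26.1 and 27.7 CPM in the wild-type libraries (log2 fold change -0.18, limma adjusted p = 0.126). Here too the groups did not overlap.

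The other 6 members of the complex had overlapping groups. Fanca averaged 47.3 ± 3.41 CPM in the knockout and 44.7 ± 0.806 CPM in wild type. Fance, Fancg and Fancc averaged 26.3, 24.0 and 19.2 CPM in the knockout and 25.2, 22.3 and 19.9 CPM in wild type. Fancb, the X-linked member, ranged from 8.55 to 14.4 CPM among the knockout libraries and from 11.6 to 12.4 CPM among the wild-type libraries. Fancf was the scarcest of them, with 63 reads over the knockout libraries and 114 over the wild-type libraries, and the 95% interval of its log2 fold change was wide, from -0.61 to 0.12.

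Mus81 (chromosome 19, 5482345 to 5488402, minus strand), a nuclease that cuts branched DNA and is held by SLX4, rose in the knockout. It had 19.1, 17.8 and 18.5 CPM in the knockout libraries, against 14.8, 14.6 and 14.8 CPM in the wild-type libraries. The groups did not overlap, and the wild-type libraries were nearly equal. The difference was 0.31 on the log2 scale (SE 0.0933, limma adjusted p = 0.0242), the largest among the called members. The call was lost on leaving out any library other than knockout replicate 2, with adjusted p-values of 0.0725 without knockout replicate 1, 0.068 without knockout replicate 3, and 0.071, 0.0785 and 0.0639 without wild-type replicates 1, 2 and 3. By DESeq2 the adjusted p of Mus81 was 0.161, and with no filter on low values it was 0.0514. Its log2 fold change without 1 library lay between 0.28 and 0.33. Slx4 averaged 55.2 ± 2.08 CPM in the knockout and 52.9 ± 2.38 CPM in wild type and did not pass the test.

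The level of a called gene relative to its partner was described within each library, as the ratio of their CPM, for 6 pairs. The pairs were chosen after the values were seen. Each sets a called gene, whose groups did not overlap, over a partner that did not pass the test. The ratio of Rad50 to Mre11a was 0.821, 0.819 and 0.767 in the knockout libraries, against 1.01, 0.895 and 0.983 in the wild-type libraries. The ratio of Nbn to Mre11a averaged 0.392 ± 0.0207 in the knockout and 0.483 ± 0.0159 in wild type, and that of Fanci to Fancd2 1.57 ± 0.0693 in the knockout and 1.31 ± 0.0681 in wild type. In these 3 pairs the libraries of the groups did not overlap.

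The ratio of Brca1 to Bard1 averaged 2.53 ± 0.160 in the knockout and 2.23 ± 0.0751 in wild type, and that of Brca2 to Palb2 2.72 ± 0.161 in the knockout and 2.34 ± 0.228 in wild type. The ratio of Mus81 to Eme1, its non-catalytic partner, averaged 0.363 ± 0.0282 in the knockout and 0.298 ± 0.00265 in wild type (SD, n = 3 each). In all 6 pairs the groups did not overlap, and the exact two-sided permutation test gave p = 0.1 in each, also after Benjamini-Hochberg adjustment over the 6. That is the smallest p this test can give with 3 against 3 libraries, so it cannot reach 0.05 for a ratio. Because of how the pairs were picked, the lack of overlap largely restates the calls and adds no separate result.

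**Figure D3:**
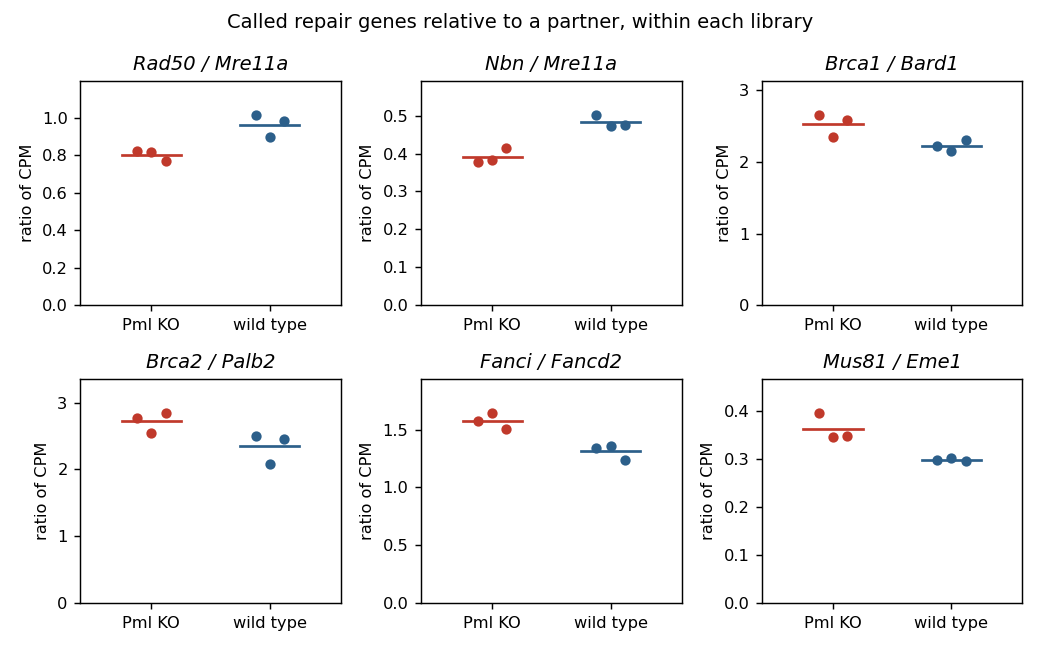
Ratio of the CPM of a called repair gene to that of a partner that did not pass the test, within each library. Pml knockout is on the left and wild type on the right of each panel, and the pairs were picked after the calls. Points are libraries and lines are means; Rad50 and Nbn are lower relative to Mre11a in the knockout, and the ratio is higher in the knockout in the other 4 panels.

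None of the 5 mediator genes Rad51b, Rad51c, Rad51d, Xrcc2 and Xrcc3 passed limma, edgeR or DESeq2, and 1 had an unadjusted p under 0.05. This was Xrcc3, which had 18.7, 23.3 and 19.8 CPM in the knockout libraries, against 16.0, 17.1 and 18.6 CPM in the wild-type libraries (log2 fold change 0.24, limma adjusted p = 0.101). Knockout libraries all lay above wild type, but the highest wild-type and the lowest knockout library were close. Xrcc2 had 29.4, 26.0 and 28.0 CPM in the knockout libraries, against 26.7, 27.3 and 22.4 CPM in the wild-type libraries, with overlap. Rad51c and Rad51d averaged 21.6 and 20.2 CPM in the knockout and 21.0 and 20.5 CPM in wild type. Rad51b was the lowest of them, at 7.03 ± 0.688 CPM in the knockout and 6.58 ± 0.874 CPM in wild type.

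Of the genes that act on the joined strands, Rad54l, a motor that moves along DNA during strand exchange, had 70.8, 65.7 and 63.2 CPM in the knockout libraries, against 59.4, 58.8 and 64.0 CPM in the wild-type libraries (log2 fold change 0.13, limma adjusted p = 0.129). The groups overlapped. Rad52, an annealing protein, had 16.6, 12.5 and 15.2 CPM in the knockout libraries, against 14.6, 15.1 and 13.7 CPM in the wild-type libraries, and its fold change had no stable sign. Rad54b averaged 38.9 ± 1.48 CPM in the knockout and 38.7 ± 3.43 CPM in wild type. It shares 35.8% of its exonic bases with Fsbp on the same strand, so the split of reads between them is uncertain.

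Of the 5 checkpoint genes 0 passed limma, edgeR or DESeq2, while 2 had an unadjusted p under 0.05. Atm, the kinase that answers double-strand breaks, had 76.2, 64.0 and 69.3 CPM in the knockout libraries, against 64.7, 57.0 and 64.9 CPM in the wild-type libraries (log2 fold change 0.16, limma adjusted p = 0.0775). The groups overlapped, and without knockout replicate 2 the log2 fold change was 0.22 and the adjusted p 0.0109. Without knockout replicate 1 these were 0.0986 and 0.342, and 2 of the 12 alternative settings called Atm. Topbp1, which activates the kinase ATR, had 269, 259.5 and 262 CPM in the knockout libraries, against 249, 251 and 251 CPM in the wild-type libraries. The groups did not overlap, and the log2 fold change was 0.07 (limma adjusted p = 0.140). Atr averaged 67.1 ± 2.19 CPM in the knockout and 69.0 ± 3.96 CPM in wild type. The effector kinases Chek1 and Chek2 averaged 95.4 and 69.1 CPM in the knockout and 91.2 and 67.1 CPM in wild type.

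Among the proteins that build on marked chromatin, 0 of 4 passed limma, edgeR or DESeq2, and 1 had an unadjusted p under 0.05. Rnf8, a ubiquitin ligase, had 5.01, 5.99 and 5.64 CPM in the knockout libraries, against 3.08, 5.42 and 3.30 CPM in the wild-type libraries. The highest wild-type library lay within the knockout range, and the log2 fold change of 0.44 was the largest of the set (limma adjusted p = 0.0815). Without wild-type replicate 2 it was 0.64 with an adjusted p of 0.0177. Without wild-type replicate 1 it was 0.31 with an adjusted p of 0.326, and 2 of the 12 alternative settings called Rnf8. Rnf8 rested on 122 reads over the knockout libraries and 121 over the wild-type libraries, and it shares 13.2% of its exonic bases with Gm28043 on the same strand.

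Trp53bp1, whose protein holds back resection, had 49.4, 57.8 and 45.6 CPM in the knockout libraries, against 57.7, 52.3 and 57.1 CPM in the wild-type libraries. The groups overlapped (log2 fold change -0.13, limma adjusted p = 0.215), and without knockout replicate 2 the log2 fold change was -0.22 and the adjusted p 0.0145. Without knockout replicate 3 these were -0.0561 and 0.688, and 1 of the 12 alternative settings called Trp53bp1. Mdc1 averaged 151 ± 2.49 CPM in the knockout and 149 ± 7.91 CPM in wild type, and the ubiquitin ligase gene Rnf168 averaged 67.7 ± 1.11 CPM in the knockout and 68.0 ± 3.44 CPM in wild type.

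Of the 33 genes that did not pass, 27 had a 95% interval of the fold change within 1.25-fold in either direction. The other 6 were Rad51b, Xrcc3, Rnf8, Fancb, Fancf and Fancl, all below 25 CPM in the knockout. The authors' deposited table holds a false discovery rate under 0.05 for the 6 genes that limma called and for no other member, with log2 fold changes of 0.16 for Brca1, 0.20 for Brca2, 0.18 for Fanci, 0.32 for Mus81, -0.25 for Rad50 and -0.28 for Nbn. Over all 24421 genes of the authors' deposited table, including those without reads, 6.36% were under 0.05.

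Per kilobase of the longest protein-coding transcript in the basic set of GENCODE, the levels in RPKM spanned a wide range in both groups. Topbp1 was highest, at 50.4 ± 0.906 RPKM in the knockout and 47.9 ± 0.169 RPKM in wild type, followed by Chek2 at 30.4 ± 1.32 RPKM in the knockout and 29.5 ± 1.77 RPKM in wild type. Rnf8 was lowest, at 1.03 ± 0.0916 RPKM in the knockout and 0.728 ± 0.240 RPKM in wild type. That rank rests on the length used, 5404 bases for Rnf8. In CPM Fancf was lower, at 2.88 in the knockout and 3.67 in wild type, against 5.54 and 3.93 for Rnf8. Rad50 stood at 12.6 ± 0.235 RPKM in the knockout and 14.9 ± 0.581 RPKM in wild type, close to Nbn at 12.5 ± 1.15 RPKM in the knockout and 15.2 ± 0.0853 RPKM in wild type. Brca2 stood at 7.08 ± 0.224 RPKM in the knockout and 6.12 ± 0.582 RPKM in wild type, below Brca1 at 21.9 ± 1.33 RPKM in the knockout and 19.6 ± 0.267 RPKM in wild type.

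**Figure D4:**
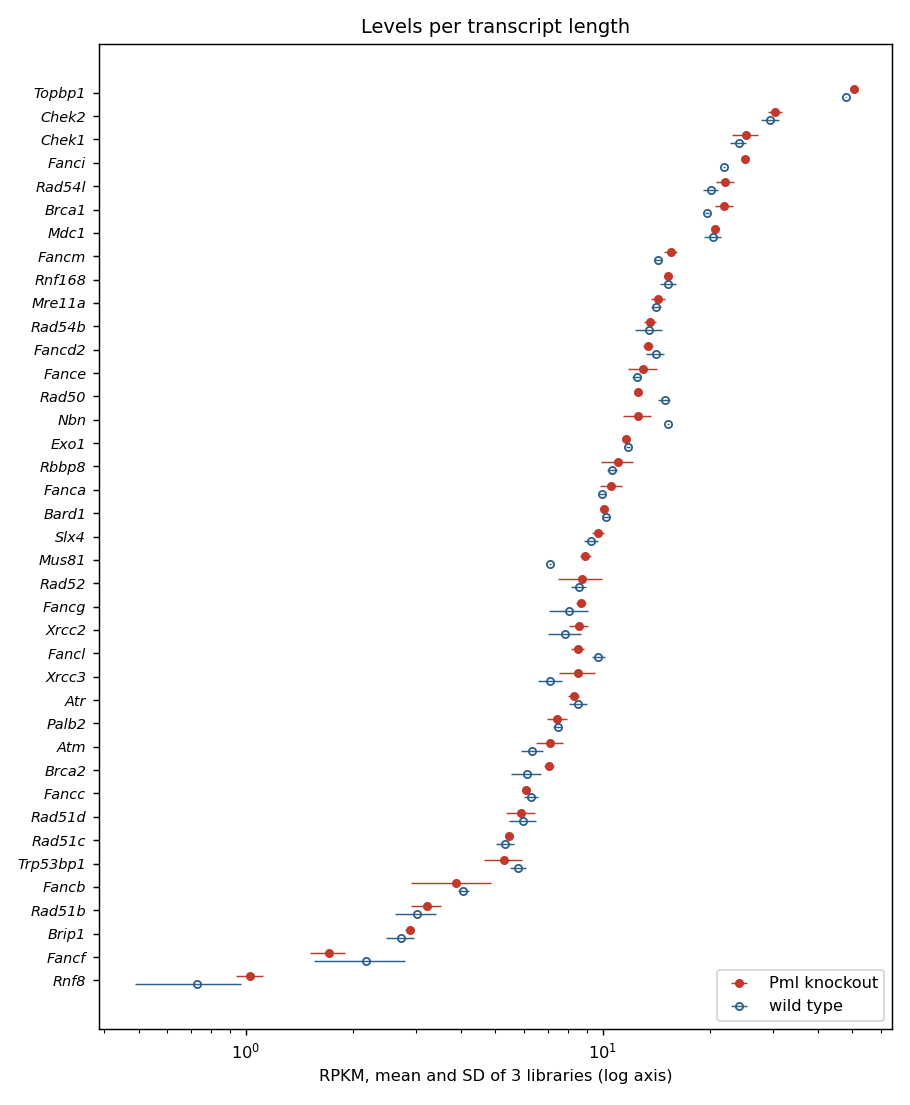
Level per transcript length of the 39 repair genes, as mean and SD of 3 libraries in RPKM on a log axis, with filled points for Pml knockout above open points for wild type. Genes are ordered by the knockout mean, from Topbp1 at 50.4 RPKM to Rnf8 at 1.03 RPKM.

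Of 41 other genes of the same pathways in the table, 4 were higher in the knockout and 1 was lower, or 12.2%, against 14.0% of all genes tested. Their median log2 fold change was 0.04. For 8 of the 41 the groups did not overlap, or 19.5%, against 30.2% of all genes tested. H2afx, the histone variant that is phosphorylated at breaks, had 610.2, 648 and 617 CPM in the knockout libraries, against 543, 561 and 539.6 CPM in the wild-type libraries. The groups did not overlap, and H2afx differed by 0.19 on the log2 scale (SE 0.0291, limma adjusted p = 2.44e-05). Rif1, a partner of 53BP1, and Rpa1, the large subunit of the protein that coats single-stranded DNA, rose by 0.13 and 0.11 on the log2 scale. Brcc3, a deubiquitinase bound to BRCA1, rose by 0.23.

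Dmc1, the recombinase of meiosis, had 1.45, 1.88 and 2.19 CPM in the knockout libraries, against 3.53, 3.20 and 2.88 CPM in the wild-type libraries (log2 fold change -0.57, SE 0.179, limma adjusted p = 0.0299). Its groups did not overlap, and its adjusted p was 0.109 without knockout replicate 1. Leaving out wild-type replicates 1, 2 and 3 gave Dmc1 0.141, 0.0942 and 0.0565.

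Other calls of this list were also lost under some settings. By DESeq2 the adjusted p was 0.22 for Dmc1, 0.193 for Brcc3 and 0.0561 for Rpa1, and with no filter on low values it was 0.063 for Dmc1. For Brcc3 the adjusted p was between 0.0513 and 0.160 without each of the 3 knockout libraries and without wild-type replicates 1 and 2. For Rpa1 it was 0.113 without knockout replicate 3, 0.0594 without wild-type replicate 1 and 0.0928 without wild-type replicate 2. For Rif1 it was 0.0589 without knockout replicate 3 and 0.0792 without wild-type replicate 2.

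Of 11 end joining genes, which rejoin breaks without a template, 1 was higher and the other 10 did not pass, with a median log2 fold change of 0.07. That is 9.09% called, against 14.0% of all genes tested. For 4 of the 11 the groups did not overlap, or 36.4%, against 30.2% of all genes tested. Xrcc6, a subunit of the Ku ring that binds the ends, had 91.0, 93.2 and 98.9 CPM in the knockout libraries, against 82.7, 84.3 and 85.7 CPM in the wild-type libraries (log2 fold change 0.16, limma adjusted p = 0.0198). The groups did not overlap, and the adjusted p was 0.127 without knockout replicate 3 and 0.114 by DESeq2. Leaving out wild-type replicates 1 and 2 gave Xrcc6 0.0885 and 0.0645.

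Because many repair genes are transcribed most in S and G2 phase, 20 genes of those phases were set beside them. Of these 1 was higher and 1 lower, or 10%, against 14.0% of all genes tested, with a median log2 fold change of -0.01. For 7 of the 20 the groups did not overlap, or 35%, against 30.2% of all genes tested. An unadjusted limma p under 0.05 was found for 6 of the 20, or 30%, against 27.4%. Top2a, a topoisomerase, rose by 0.09 on the log2 scale, while its adjusted p was 0.186 without knockout replicate 3, 0.171 without wild-type replicate 2 and 0.0545 without wild-type replicate 3. For Top2a it was 0.092 by DESeq2 and 0.0916 with no filter on low values. Cdc20, an activator of mitotic exit, fell by 0.12. The 20 genes summed to between 7248 and 7299 CPM in the knockout and between 7250.1 and 7307 CPM in wild type. These sums overlapped, and they are weighted toward the most abundant genes.

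**Figure D5:**
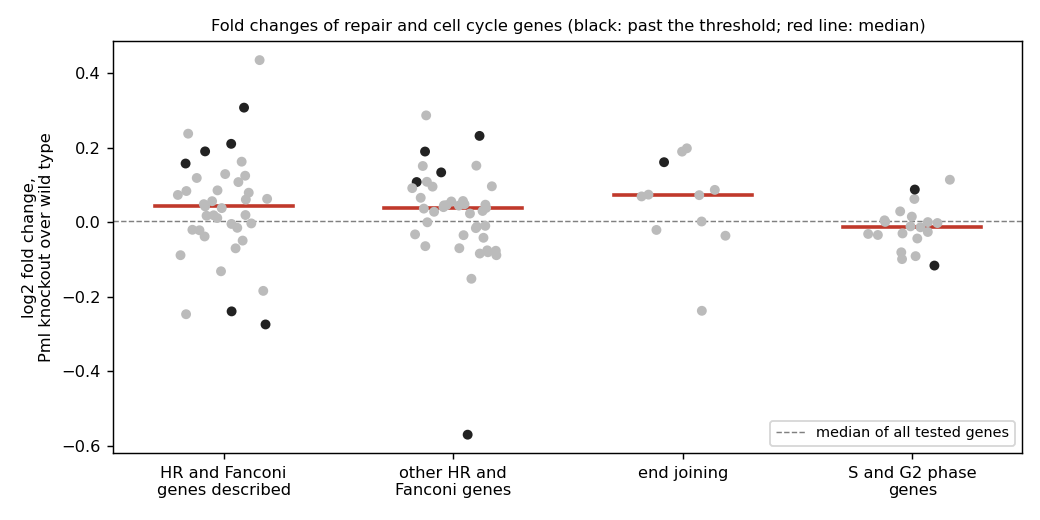
Log2 fold changes, Pml knockout over wild type, on the log2(CPM + 1) scale for the 39 repair genes, 41 other genes of the same pathways, 11 end joining genes and 20 genes of S and G2 phase. Black points passed limma at an adjusted p under 0.05, grey points did not, red lines are medians (0.04, 0.04, 0.07 and -0.01 from left to right), and the dashed line is the median of all tested genes (0.00463).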

How the data were processed

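The authors deposited 1 table with 6 CPM columns, 1 per library, whose names carry the replicate number and either KO34 or, taken as wild type, the name of the line alone. Cutadapt trimming, TopHat alignment (mm10) and edgeR testing by the authors are stated in the submitters' processing notes. Versions, annotation, counter and any use of strand are not stated in these sources. The authors' deposited log2 fold changes, p-values and false discovery rates stand in further columns, per the file headers. Of 25833 rows, 1097 had no value and 315 repeated a gene, and 24421 genes stayed.

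Whole reads were recovered from the CPM: 100% of values were whole within 0.01 of a read. Genes kept by edgeR's filterByExpr on these reads (12435) entered limma 3.58.1 with a trend on log2(CPM + 1). The design had no covariate. Alternatives were a pseudocount of 0.25, no filter, edgeR 4.0.16 on recovered reads, which called 1820 genes, DESeq2 1.42.0, TMM-scaled CPM, a replicate block and each library left out. The steps were tested on simulated data. Library pairs differed beyond sampling noise (chi-square per degree of freedom at least 1.33), so all 6 libraries were counted. In the smallest library 3 reads equal 0.513 CPM. Intervals of fold changes are limma's. Coordinates, exons and lengths are from GENCODE M21 (GRCm38, as mm10), since several deposited loci span more than 1 gene.

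The members, named by symbol without a threshold on their values, and the gene lists were chosen with earlier results of these data known, so no p-value was taken over a list. Values in every library were given for each called member and, in roles without a call, for the 2 members with the smallest p. Also named were the members highest and lowest per length, Pml, and called genes of the other lists (at most 6 a list), with Mre11a and Fancd2 added after their values were seen. A withheld item is not reported here.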

Additional observations from a re-analysis of the deposited data

How the results depend on the processing

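Of all tested genes 1745 were called, and between 1160 and 1852 without 1 library, with 1160 without wild-type replicate 2. Of the 39 repair genes 6 were called, and between 4 and 9 without 1 library. The 4 were 10.3% of the set, where between 9.22% and 12.4% of all genes were called. The 9, without knockout replicate 2, were 23.1% of the set, against 14.6% of all genes. DESeq2 called 802 genes (6.58% of those with an adjusted p) and 2 repair genes (Fanci and Rad50, 5.13% of the set). It called 3 genes of the other lists, against 8 by limma, which called 14.0% of all genes. The other lists had between 2 and 10 calls without 1 library. The 2 were found without wild-type replicate 2, where 9.22% of all genes were called. The 10 were found without knockout replicate 2, where 14.6% of all genes were called. The median log2 fold change of the repair genes was 0.04, and between 0.0162 and 0.0476 without 1 library. Rad52 lay at 0.02, and between -0.0658 and 0.127 without 1 library, below 0 without knockout replicate 1 (-0.0658), knockout replicate 3 (-0.00475) and wild-type replicate 3 (-0.0159); the cause was not tested. Mus81 had an adjusted p of 0.0514 with no filter on low values. The pseudocount, edgeR and TMM scaling kept the same 6 calls.

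Same-numbered libraries deviated together only weakly (correlations of 0.0755, 0.0603 and 0.0136 over genes), so the numbers were not taken as pairs, although each library correlated best with its own number. With the replicate block 2337 genes were called (18.8%) and 9 of the 39, with Atm, Fancm and Rnf8 added.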
